A study of Mus musculus with 8 samples.

Results

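Mitochondrial ribosomal protein mRNAs were examined in fully grown germinal vesicle (GV) stage mouse oocytes that lack CNOT7 and CNOT8. The genes were taken by name, as every row of the deposited count table whose symbol is Mrpl or Mrps followed by a number and at most 1 letter. This rule found 78 of 46078 rows, which carry 77 symbols because Mrps23 is listed under 2 gene identifiers. Of these, 76 passed the filter on low counts (0.2 CPM in at least 2 libraries, where CPM is the count scaled to a library of 1000000 counts), and the other 2 had no count in any library.

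CNOT7 and CNOT8 are deadenylase subunits of the CCR4–NOT complex, which shortens poly(A) tails, and the study asked how their joint loss changes maternal mRNAs. CNOT7&8 KO oocytes carried floxed alleles of both genes (Cnot7 fl/fl, Cnot8 fl/fl) together with Zp3-Cre, in which the promoter of the zona pellucida gene Zp3 drives Cre in growing oocytes, and control oocytes were of the genotype Zp3-Cre. Females were of C57BL/6J background and 4 weeks old, and oocytes were collected 48 h after injection of pregnant mare serum gonadotropin (PMSG), which stimulates follicle growth. Each group had 4 libraries of 100 oocytes each. The label of the control names no floxed allele, so Cre was shared by both groups and the floxed alleles were not.

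Mitochondria have their own ribosome, the mitoribosome, which translates the few mRNAs of the mitochondrial genome, all of which encode subunits of the respiratory chain and ATP synthase. Its RNAs come from mitochondrial DNA, whereas all of its proteins are encoded in the nucleus, translated in the cytosol and imported. Some have a counterpart in the bacterial ribosome and others are found only in mitochondria. In the oocyte, mitochondria are numerous, are passed on to the embryo and supply most of the ATP for meiotic maturation.

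Control libraries held 14943671 to 44092144 counts and KO libraries 8639444 to 26784110, and 3 counts, taken as the smallest signal, made 0.0680 CPM in the deepest library and 0.347 CPM in the shallowest. PCR copies of a molecule are counted more than once, so these floors reflect counting error alone. Of the targeted genes, Cnot8 stood at 21.0% of its control level in KO oocytes and Cnot7 at 77.1%. Both were below every control library in every KO library. The exons that the deletion removes are not given in the sources used here, and the counts cover the whole gene. Oocyte markers (8 of 8 measured, among them Zp3 and Gdf9) summed to 16066 to 18865 CPM in control and 13540 to 15808 CPM in KO libraries. Granulosa cell markers summed to 128 to 172 CPM in control and 214 to 267 CPM in KO libraries, with Foxl2 between 0 and 0.109 CPM. These markers did not move together, since 5 of the 9 tested were higher and 1 was lower (quasi-likelihood test in edgeR). Nr5a2 had 48.3 to 69.3 CPM in control and 114 to 132 CPM in KO libraries, and Kitl 11.9 to 20.7 and 30.3 to 52.2 CPM. Cyp19a1 had 50.4 to 67.7 and 23.5 to 38.1 CPM. Of the 4 blood markers, the hemoglobin genes Hba-a1 and Hbb-bs were at 0 in all libraries, and all 4 summed to 0.748 to 1.83 CPM in control and 2.93 to 5.12 CPM in KO libraries. The part of granulosa or blood cells in the results below was not tested.

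Most mitochondrial ribosomal protein mRNAs were lower in CNOT7&8 KO oocytes. Of the 76 tested, 54 were lower and 2, Mrpl15 and Mrps26, were higher at an adjusted p of at most 0.05 (quasi-likelihood test in edgeR, Benjamini-Hochberg adjustment over all 19241 tested genes), and 20 did not pass. Over all tested genes, 24.1% were lower and 31.2% were higher. The median log2 fold change (KO over control) was -0.58 over the 76 mRNAs and 0.12 over all tested genes. The median mRNA of the list stood at 66.8% of its control level. The log2 fold changes ran from -1.62 to 1.17, and 68 of 76 were below 0. In 42 of them every KO library was below every control library, against 21.4% of all tested genes, and in 2 every KO library was above, against 27.0%.

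The scaling of the libraries moved these counts. Values are CPM scaled by TMM (trimmed mean of M values), which takes most genes as unchanged. With it, 4631 of the 19241 tested genes were lower and 5997 were higher. With library size only, the median over all tested genes moved from 0.12 to 0.40 on the log2 scale, and the split among mitochondrial ribosomal proteins moved from 54 lower and 2 higher to 22 lower and 6 higher, with 13.6% of all tested genes lower and 40.2% higher. Relative to the median of all tested genes, the median of the list was -0.70 with TMM and -0.71 with library size only. Scaling shifts all genes by about the same amount, so this difference cannot show how far the result depends on scaling. It was -0.51 when genes needed at least 1 CPM in 4 libraries and -0.97 with no filter beyond 1 count. CPM is a share of the RNA counted in a library, so fewer oocytes that hold an mRNA and less of it in each oocyte cannot be told apart here. A share also falls if other mRNAs rise while its own amount per oocyte stays the same. The amount per oocyte was not tested.

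Summed over the 76 mRNAs, the TMM-scaled level had no overlap between the groups, with all KO libraries below the controls. The control libraries held 3476, 3893, 4092 and 3871 CPM in replicates 1 to 4, and the KO libraries 2681, 2776, 2655 and 2309 CPM. As a percentage of unscaled counts, the sums were 0.295, 0.358, 0.386 and 0.356 in control and 0.286, 0.308, 0.303 and 0.253 in KO replicates 1 to 4. On that scale KO replicates 2 and 3 lay above control replicate 1.

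**Figure D1:**
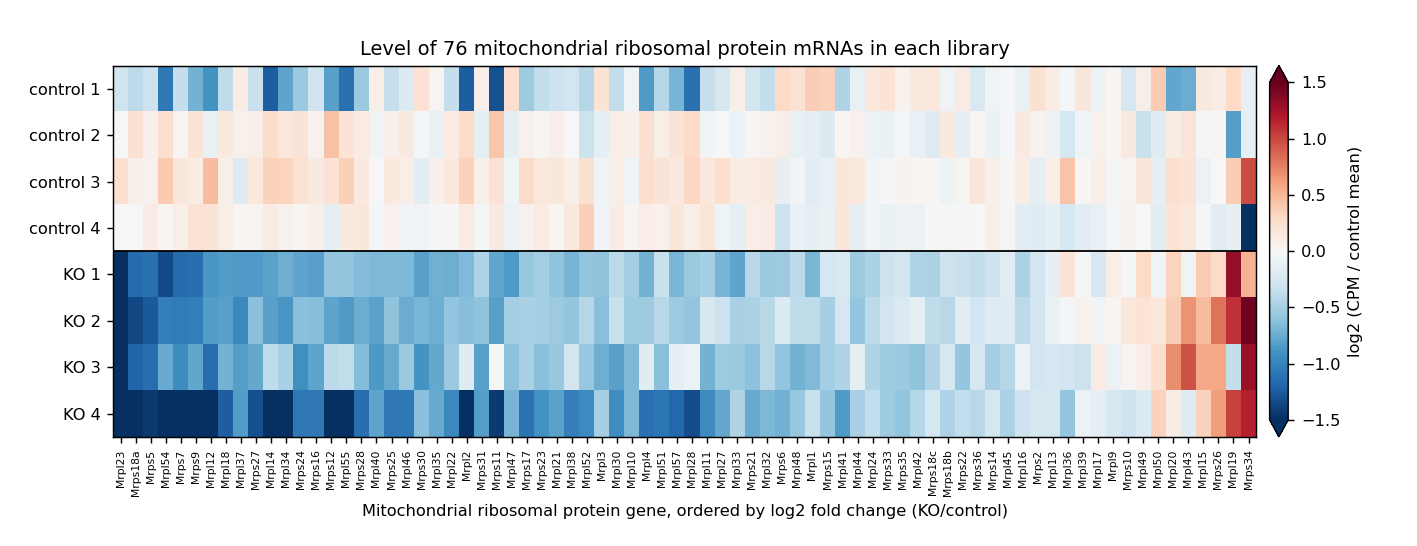
Heat map of the level of each of the 76 tested mRNAs (columns, ordered by log2 fold change) in each of the 8 libraries (rows), as the log2 ratio of TMM-scaled CPM to the mean of the 4 control libraries. Colors end at the limits of the scale, so more extreme values share the last color. Most columns are blue in all 4 KO libraries, at a median of -0.49 to -0.76 in each, and control 1 is blue for a part of the columns.

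The mRNAs differed in abundance, and abundance bears on the background to which they are compared. Of the 76, 53 had a mean from 10 to under 100 CPM. In this range 41 were lower and 1 was higher, whereas 36.8% of all 6314 tested genes of the same abundance were lower and 25.8% were higher. This comparison was added after seeing the data. The median log2 fold change in this range was -0.62 for the 53 mRNAs and -0.17 for all genes. Of the 8 mRNAs with 100 CPM or more, 7 were lower and none was higher by the quasi-likelihood test, and Mrpl9 did not pass. Of the 15 below 10 CPM, 6 were lower and 1 was higher, with a median of -0.02.

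**Figure D2:**
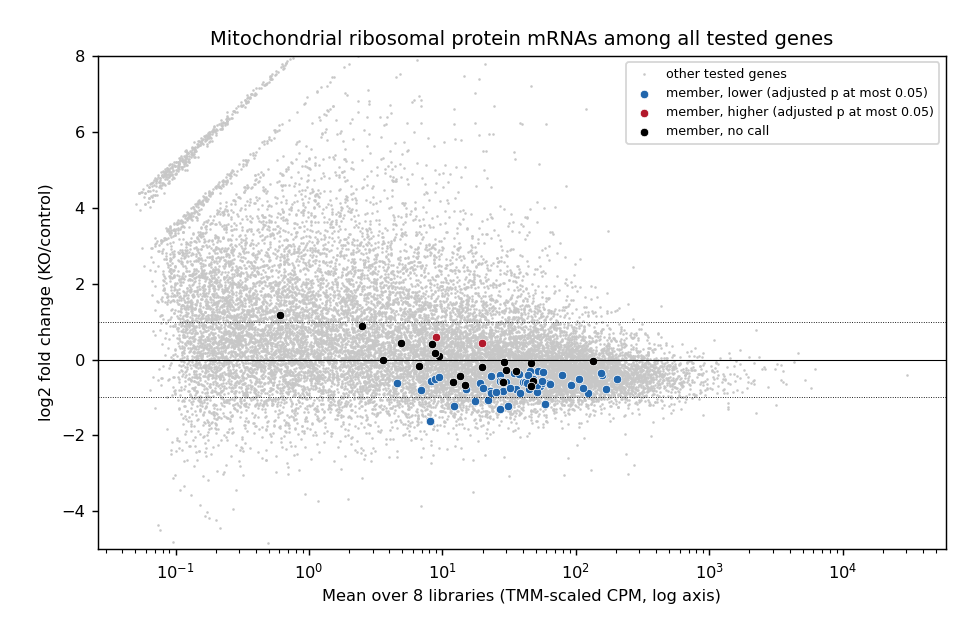
Log2 fold change (KO over control) against the mean of the 8 libraries in TMM-scaled CPM on a log axis, for all tested genes (gray) and the mitochondrial ribosomal protein mRNAs that were lower (blue), higher (red) or not called (black). Dotted lines mark 2-fold, and genes outside the vertical axis are not drawn. Mitochondrial ribosomal proteins lie mostly between 10 and 100 CPM and below 0, as 52 of 53 did in that range with TMM scaling.

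Both subunits of the mitoribosome took part in the decrease with TMM scaling. Of 49 tested proteins of the large subunit, 32 were lower and 1 was higher, with a median log2 fold change of -0.58. Of 26 tested proteins of the small subunit, 21 were lower and 1 was higher, with a median of -0.59. Among proteins with a bacterial counterpart, 32 of 46 were lower and 1 was higher (median -0.60), and among those without such a counterpart 21 of 29 were lower and 1 was higher (median -0.51). Beside these counts stand 24.1% lower and 31.2% higher of all tested genes, and 36.8% and 25.8% of those from 10 to under 100 CPM. The difference between the classes of proteins was not tested. Mrps36, in spite of its name, belongs to the 2-oxoglutarate dehydrogenase complex and was counted in neither subunit.

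At a fold change of at least 2 in addition to the adjusted p, the definition of differentially expressed genes (DEGs), 7 mitochondrial ribosomal protein mRNAs were downregulated, and none was upregulated by the quasi-likelihood test. The downregulated mRNAs encode large-subunit proteins (Mrpl23, Mrps18a, Mrpl54 and Mrpl12) and small-subunit proteins (Mrps5, Mrps7 and Mrps9). Over all tested genes, 6.56% were downregulated and 23.8% were upregulated by this definition, so 7 downregulated of 76 is not far above the background. From 10 to under 100 CPM, 6 of 53 mRNAs of the list and 524 of all 6314 tested genes were downregulated. With library size only, the same definition gave 2 downregulated and 2 upregulated mRNAs of the list, beside 3.06% and 29.3% of all tested genes. Without KO replicate 4 it gave 4 downregulated (5.50% of all tested genes), and without control replicate 1 it gave 11 (7.46%).

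Mrpl23 (ENSMUSG00000037772, chr7:142532686-142540747, plus strand, GRCm38) had the strongest decrease among the 76 with TMM scaling. It encodes a protein of the large subunit whose bacterial counterpart lies at the exit of the peptide tunnel. Its level was 9.86, 12.2, 14.4 and 12.1 CPM in control replicates 1 to 4 and 3.91, 4.01, 3.95 and 3.85 CPM in KO replicates 1 to 4. The groups were far apart, and the KO libraries differed from each other by little. Expression in KO oocytes was 32.4% of control, a log2 fold change of -1.62 (standard error, SE, 0.17, adjusted p = 1.11e-05, quasi-likelihood test in edgeR).

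Mrps18a (ENSMUSG00000023967, chr17:46110986-46128910, plus strand) is named after the small subunit but its protein sits in the large subunit. It had 29.3, 44.9, 40.5 and 38.4 CPM in control replicates 1 to 4 and 17.2, 15.0, 16.6 and 13.2 CPM in KO replicates 1 to 4, without overlap. The log2 fold change was -1.31 (SE 0.16, adjusted p = 3.12e-05, quasi-likelihood test in edgeR). Mrps18b and Mrps18c, its paralogs, encode proteins of the small subunit. Mrps18b stood at 38.6 ± 2.83 CPM in control and 30.0 ± 1.87 CPM in KO oocytes (SD, n = 4 each), a log2 fold change of -0.36 (SE 0.12). Mrps18c stood at 42.8 ± 4.33 and 32.6 ± 2.13 CPM, a log2 fold change of -0.39 (SE 0.12). Both passed the test (adjusted p = 0.0189 and 0.0166, edgeR), and in neither did the groups overlap. The call of Mrps18b was lost in 7 of 18 alternatives and that of Mrps18c in 4 of 18, among them library size only (-0.08 and -0.10), upper quartile scaling (-0.27 and -0.29) and TMM factors from genes with 10 CPM or more (-0.12 and -0.14), and for Mrps18b leaving out control replicate 2, KO replicate 2 or KO replicate 4 (-0.31, -0.33 and -0.32). In the annotation, 30.5% of the exon bases of Mrps18b lie opposite the antisense gene Gm16279 and 23.2% of those of Mrps18c lie in Gm43511 on the same strand, and reads of these genes cannot be told apart where counting did not separate them.

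Mrps30 (ENSMUSG00000021731, chr13:118378381-118387252, minus strand) is another protein of the large subunit with a small-subunit name. Its level was 29.3, 24.5, 22.5 and 24.2 CPM in control and 14.3, 15.6, 13.4 and 16.3 CPM in KO replicates 1 to 4. The groups did not overlap. The log2 fold change was -0.75 (SE 0.14, adjusted p = 0.000716, quasi-likelihood test in edgeR).

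Among the small-subunit proteins, the 3 downregulated mRNAs all have a bacterial counterpart, as do 16 of the 26 tested. Mrps5 (ENSMUSG00000027374, chr2:127587222-127606829, plus strand), whose bacterial counterpart lies near the path by which mRNA enters, had 35.2, 46.0, 45.4 and 47.5 CPM in control and 20.0, 18.1, 19.7 and 16.1 CPM in KO replicates 1 to 4. Its log2 fold change was -1.24 (SE 0.14, adjusted p = 1.85e-05, quasi-likelihood test in edgeR). Mrps7 (ENSMUSG00000046756, chr11:115603925-115608036, plus strand), a protein of the head of the small subunit, had 63.6, 84.2, 91.8 and 87.0 CPM in control and 36.8, 39.3, 42.4 and 27.1 CPM in KO replicates 1 to 4. Its log2 fold change was -1.17 (SE 0.16, adjusted p = 8.26e-05). Mrps9 (ENSMUSG00000060679, chr1:42851233-42905683, plus strand), also of the head, had 14.7, 27.7, 25.8 and 27.8 CPM in control and 11.0, 11.7, 14.0 and 8.38 CPM in KO replicates 1 to 4. In all 3 genes the groups did not overlap, although control replicate 1 of Mrps9 came close to the KO libraries. The log2 fold change of Mrps9 was -1.09 (SE 0.22, adjusted p = 0.00138, quasi-likelihood test in edgeR).

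The other downregulated mRNAs of the large subunit overlapped between groups through control replicate 1. Mrpl12 (ENSMUSG00000039640, chr11:120484613-120489065, plus strand) encodes the protein of the flexible stalk, which brings translation factors to the ribosome. Its values were 16.0, 27.8, 41.3 and 34.5 CPM in control and 16.4, 16.7, 13.5 and 10.4 CPM in KO replicates 1 to 4. Control replicate 1 lay within the KO range, and the log2 fold change was -1.07 (SE 0.26, adjusted p = 0.00405, quasi-likelihood test in edgeR; exact permutation test, two-sided p = 0.0857). Mrpl54 (ENSMUSG00000034932, chr10:81264713-81266934, minus strand), a protein without a bacterial counterpart, had 8.10, 20.3, 22.4 and 17.4 CPM in control and 6.73, 8.35, 10.1 and 4.15 CPM in KO replicates 1 to 4. Here too control replicate 1 lay within the KO range. Its log2 fold change was -1.22 (SE 0.32, adjusted p = 0.00694, quasi-likelihood test in edgeR; exact permutation test, two-sided p = 0.0857). For a gene whose groups did not overlap, the same permutation test gave 0.0286, the smallest p that 70 assignments of 8 libraries allow.

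**Figure D3:**
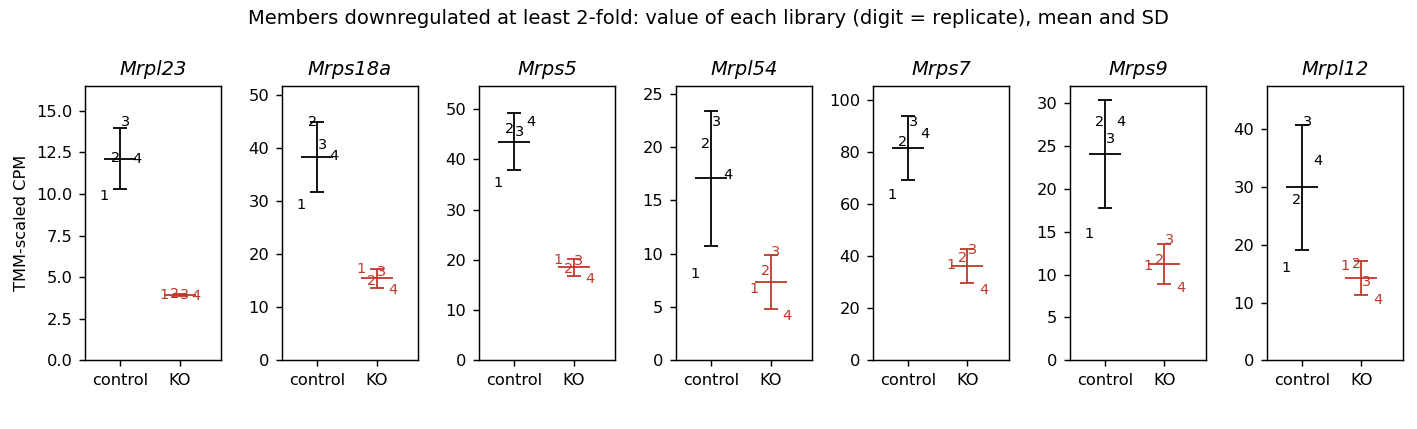
TMM-scaled CPM of the 7 downregulated mRNAs in each library of control (black) and CNOT7&8 KO (red) oocytes. Digits are replicate numbers at their values, the horizontal bar is the mean and the whiskers are the SD (n = 4). The groups are separate for Mrpl23, Mrps18a, Mrps5, Mrps7 and Mrps9, and control 1 reaches the KO range for Mrpl54 and Mrpl12.

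Just below the 2-fold line, Mrpl18, Mrpl37 and Mrps27 fell by 0.87 to 0.89 on the log2 scale. Mrpl18, whose bacterial counterpart binds ribosomal RNA in the central protuberance of the large subunit, went from 161 ± 25.4 to 87.3 ± 13.1 CPM (SD, n = 4 each). Mrpl37, a mitochondria-specific protein of the large subunit, went from 29.7 ± 2.67 to 16.3 ± 0.713 CPM. Mrps27, an RNA-binding protein of the small subunit, went from 49.2 ± 7.04 to 27.0 ± 5.19 CPM. All 3 passed the test without overlap between groups, and the adjusted p ranged from 0.000121 for Mrpl37 to 0.000883 for Mrps27 (quasi-likelihood test in edgeR).

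The mRNAs that went against the rest were of low or moderate abundance. Mrpl15 (ENSMUSG00000033845, chr1:4773206-4785739, minus strand), a protein of the large subunit with a bacterial counterpart, had 18.3, 16.3, 15.8 and 16.5 CPM in control and 21.8, 23.2, 24.8 and 21.2 CPM in KO replicates 1 to 4. The groups did not overlap, and the log2 fold change was 0.44 (SE 0.13, adjusted p = 0.0111, quasi-likelihood test in edgeR). Mrps26 (ENSMUSG00000037740, chr2:130563742-130568695, plus strand), a mitochondria-specific protein of the small subunit, had 7.80, 7.35, 7.21 and 6.48 CPM in control and 8.79, 12.7, 10.8 and 11.1 CPM in KO replicates 1 to 4. It rose by 0.59 on the log2 scale (SE 0.16, adjusted p = 0.00896, quasi-likelihood test in edgeR), again without overlap. Both were higher under every scaling tried, with log2 fold changes of 0.73 for Mrpl15 and 0.88 for Mrps26 when library size only was used.

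Mrpl19 and Mrps34 had the largest positive values without passing the test. Mrpl19, of the large subunit, had 2.14, 0.987, 2.25 and 1.60 CPM in control and 4.34, 3.73, 1.36 and 3.54 CPM in KO replicates 1 to 4, and KO replicate 3 lay within the control range. The log2 fold change was 0.88 (SE 0.36, adjusted p = 0.0561, quasi-likelihood test in edgeR). The value of Mrps34, a mitochondria-specific protein of the small subunit, was 0.378 ± 0.278 CPM in control and 0.841 ± 0.214 CPM in KO oocytes (SD, n = 4 each), with an adjusted p of 0.0627 (edgeR). Both passed with edgeR's exact test and with library size only, and the counts of both are uncertain. Of the exon bases of Mrps34, 63.4% lie opposite Mapk8ip3 and 37.0% lie in Nme3 on the same strand, and 36.0% of those of Mrpl19 lie opposite Gcfc2.

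Of the remaining mRNAs with the highest fold changes, none passed the quasi-likelihood test with TMM scaling. Mrpl43, Mrpl20, Mrpl50 and Mrpl49, all of the large subunit, had log2 fold changes of 0.44, 0.40, 0.18 and 0.10, with adjusted p from 0.159 to 0.639 (edgeR). The sign of the smallest changes depended on the scaling, since Mrpl9 had -0.05 and Mrps10 -0.02 with TMM and 0.23 and 0.26 with library size only. Mrpl9, an abundant mRNA of the large subunit, had 138, 139, 134 and 133 CPM in control and 146, 139, 127 and 115 CPM in KO replicates 1 to 4. The groups overlapped widely.

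Per length, the mRNAs of the mitoribosome were not equally abundant, although their products enter the complex in fixed numbers. Levels were compared as control CPM per kilobase of the longest annotated transcript. This transcript can be of any type, coding or not, so its length may differ from that of the mRNA. Merged exons, used as the other length, include such transcripts too. The highest were Mrps21 (136 ± 16.3), Mrpl24 (134 ± 10.5), Mrpl18 (132 ± 20.8), Mrpl14 (102 ± 40.0) and Mrpl22 (93.1 ± 14.3; SD, n = 4 each), whose SDs overlap among the top 4. The lowest were Mrps34 (0.201 ± 0.148), Mrpl19 (0.349 ± 0.115), Mrps10 (0.891 ± 0.101), Mrps26 (1.69 ± 0.128) and Mrpl43 (2.99 ± 0.809). With the length of all merged exons in place of the longest transcript, the same 5 were highest and Mrpl43 ranked 69 of 76. The 5 highest were all lower in KO oocytes with TMM scaling, by log2 fold changes of -0.86 for Mrpl14, -0.70 for Mrpl22, -0.56 for Mrps21 and -0.42 for Mrpl24 beside Mrpl18. The call of Mrpl14 (adjusted p = 0.0411, quasi-likelihood test in edgeR) was lost in 10 of 18 alternatives, among them upper quartile scaling (-0.78) and leaving out any library but control replicate 1 or KO replicate 3, and its groups overlapped (exact permutation test, two-sided p = 0.114). Those of Mrps21 and Mrpl24 were lost in 2 of 18, with library size only (-0.28 and -0.13) and with TMM factors from genes with 10 CPM or more (-0.32 and -0.17).

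Mrpl53 and the second identifier of Mrps23 had 0 counts in all 8 libraries, which allows up to 0.347 CPM in the shallowest. In the annotation, 88.0% of the exon bases of Mrpl53 lie in Gm42688 on the same strand, and how reads in these bases were counted is not given in the sources used here. Exons of 32 genes of the list, Mrpl53 included, overlap those of another annotated gene, among them Mrps25 (69.8% of its exon bases, opposite Nr2c2) and Mrpl43 (33.4%, opposite Twnk). The other identifier of Mrps23, ENSMUSG00000023723, went from 68.1 ± 10.5 to 44.1 ± 5.44 CPM (SD, n = 4 each). Mrpl58, the peptidyl-tRNA hydrolase that became part of the large subunit, is listed under its older symbol Ict1 and was not found by the name rule. It had 26.0, 40.0, 42.9 and 35.2 CPM in control and 19.6, 23.2, 24.2 and 15.5 CPM in KO replicates 1 to 4, without overlap, and a log2 fold change of -0.80 (SE 0.19, adjusted p = 0.00311, quasi-likelihood test in edgeR). Mrps36, of the 2-oxoglutarate dehydrogenase complex, had a log2 fold change of -0.33 (SE 0.12, adjusted p = 0.0312, quasi-likelihood test in edgeR), a call that was lost in 13 of 18 alternatives. With the proteins of other names added and Mrps36 left out, 58 of 81 tested mitoribosomal mRNAs were lower and 2 were higher. Of all tested genes, 24.1% were lower and 31.2% were higher.

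The deepest library of each group, control replicate 1 and KO replicate 4, deviated together for these mRNAs. They did so over all tested genes too, with r = 0.37 between their deviations from the group means. In control replicate 1, 37 of the 76 mRNAs were below 0.8 of the mean of the other 3 control libraries. In KO replicate 4 it was 33 relative to the other 3 KO libraries, and 30 were below it in both. Of all 6314 tested genes of 10 to under 100 CPM, the counts were 1242, 1300 and 1019. The median ratio was 0.810 in control replicate 1 and 0.837 in KO replicate 4, against 1.12 and 0.996 over all tested genes of 10 to under 100 CPM. Across the 76 mRNAs the ratios in the deep libraries went together (Pearson r = 0.86, Spearman rho = 0.85; a description across genes that share these libraries). Mrpl14, of the large subunit, had 28.0, 79.8, 84.0 and 72.1 CPM in control and 37.7, 37.6, 50.6 and 19.2 CPM in KO replicates 1 to 4.

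Properties of the longest annotated transcript, which need not be a coding one, moved with this deviation. The 30 mRNAs that were low in both deep libraries had a median GC content of 52.2% and a median transcript length of 1357 bases, and the other 46 had 47.8% and 2468 bases. Across the 76 mRNAs, r with GC content was -0.49 in control replicate 1 and -0.52 in KO replicate 4, and r with transcript length was 0.36 and 0.39. The fold changes moved with it too. The median log2 fold change was -0.68 over the 30 mRNAs low in both deep libraries, of which 21 were lower, and -0.42 over the other 46, of which 33 were lower. The share called lower was thus about the same in both sets, beside 24.1% of all tested genes. Across the 76 mRNAs, the log2 fold change had r = 0.37 and rho = 0.50 with the ratio in control replicate 1 and r = -0.22 and rho = -0.38 with GC content, as a description across genes that share these libraries. The part of this deviation in the fold changes of single genes was not tested. The median log2 ratio of KO replicate 4 to control replicate 1 was -0.54, and that of the other KO to the other control libraries was -0.58. Without both deep libraries, 58 mRNAs were lower, 2 were higher and 7 were downregulated at least 2-fold, with a median of -0.58. The shares of all tested genes were 26.3%, 31.8% and 6.35%. This alternative was chosen after seeing the data.

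**Figure D4:**
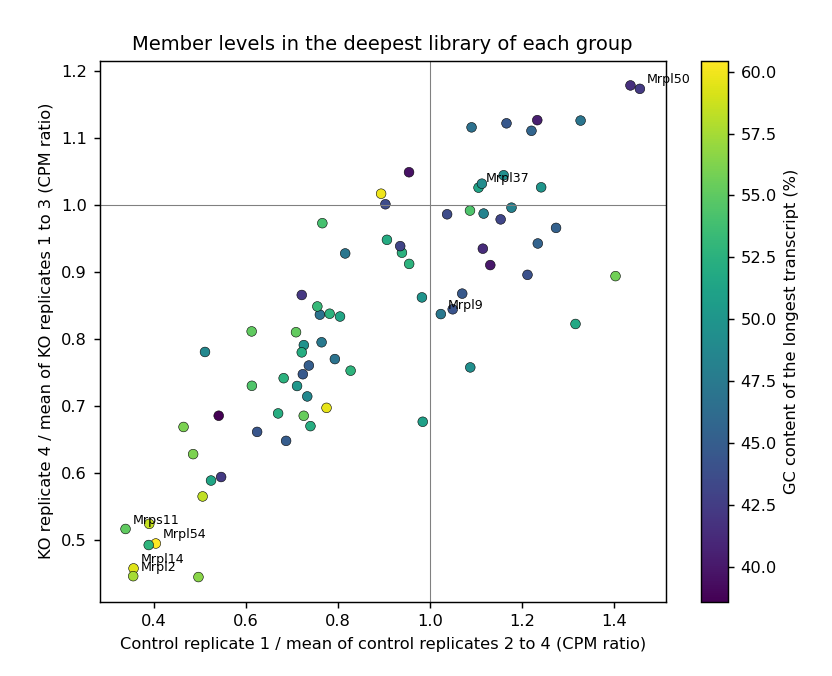
CPM of each of the 76 mRNAs in control 1 relative to the mean of the other 3 control libraries (horizontal axis) and in KO 4 relative to the mean of the other 3 KO libraries (vertical axis), colored by the GC content of the longest transcript. Labels name a few genes chosen after their values were seen. Ratios in both libraries go together (r = 0.86), and 30 mRNAs lie below 0.8 on both axes.

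The promoters of nuclear genes for mitochondrial proteins are known for binding sites of ETS factors such as GABP (Gabpa and its partners), of NRF1 and of YY1. Promoter sequences of RefSeq (GRCm38.p6, 250 bases before to 50 after the start) were found for 69 of the genes, and 3 motifs were searched on both strands, each by its letters alone. CCGGAAGT (ETS) was present in a promoter of 12 of the 69 genes (17.4%), GCGCATGC (NRF1) in 8 (11.6%) and AAGATGGC (YY1) in 12 (17.4%). Among 13159 tested genes with a promoter sequence, 7.64%, 5.18% and 4.45% held these motifs in any promoter. Counted per promoter, a different measure, the shares of all 32851 promoters were 3.89%, 2.71% and 2.75%. In all, 29 of the 69 genes held any of the motifs and 3 held more than 1. No matches of different motifs overlapped in the 75 promoters of these genes. The windows below are shown for 5 of the 10 mRNAs with the most negative log2 fold change, for Mrpl22, an abundant mRNA that was lower and holds the NRF1 motif, and for Mrps26, which rose, with the match in capitals on the strand of the gene. A match in capitals that reads ACTTCCGG is the ETS motif of the opposite strand.
Mrps18a, YY1, chr17:46111004-46111033 (+): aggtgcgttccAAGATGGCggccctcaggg
Mrps7, YY1, chr11:115604147-115604176 (+): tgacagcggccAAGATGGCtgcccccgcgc
Mrps27, YY1, chr13:99344789-99344818 (+): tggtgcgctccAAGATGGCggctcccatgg
Mrpl37, YY1, chr4:107066822-107066851 (-): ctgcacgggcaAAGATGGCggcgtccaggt
Mrpl18, ETS, chr17:12916312-12916341 (-): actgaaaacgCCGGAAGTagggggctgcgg
Mrps27, ETS, chr13:99344726-99344755 (+): gtggtaggaccACTTCCGGcggaggcgggc
Mrps26, ETS, chr2:130563731-130563760 (+): gctccgcggccACTTCCGGgccgggcgcag
Mrpl22, NRF1, chr11:58171620-58171649 (+): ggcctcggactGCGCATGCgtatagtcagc
The YY1 matches of Mrps18a, Mrps7, Mrps27 and Mrpl37 begin at base 12 to 27 of the annotated transcript, counting its start as 1. The letters AAGATGGC hold an ATG, and whether matches span a start codon or bind YY1 was not tested.

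Among the regulators of such promoters, the mRNAs of Gabpa, Yy1 and Ppargc1a were upregulated at least 2-fold. Gabpa rose from 3.08 ± 1.51 to 19.6 ± 2.11 CPM (SD, n = 4 each; log2 fold change 2.62, SE 0.30), Yy1 from 6.45 ± 1.26 to 28.3 ± 6.09 CPM (2.12, SE 0.20) and the coactivator Ppargc1a from 0.443 ± 0.0687 to 2.0 ± 0.616 CPM (2.15, SE 0.33). Their adjusted p ranged from 4.36e-06 to 0.000178 (quasi-likelihood test in edgeR). Nrf1 had 254 ± 12.2 and 236 ± 14.6 CPM and did not pass (adjusted p = 0.347). Of the 10 regulators listed, 8 were tested, 4 were higher and none was lower by this test, with a median of 0.50. These 4 of 8, and the 3 of 8 upregulated at least 2-fold, stand beside 31.2% of all tested genes that were higher and 23.8% that were upregulated at least 2-fold.

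In oocytes, elements in the 3′UTR govern the poly(A) tail and translation of stored mRNAs. UUUUAU, a form of the cytoplasmic polyadenylation element, was counted in the longest annotated 3′UTR of at least 50 bases. Mitochondrial ribosomal protein mRNAs had short 3′UTRs, with a median of 390 bases over 75 mRNAs against 1119 over 15125 tested protein-coding genes. UUUUAU was present in 30 of 75 (40.0%) and in 56.2% of all. Within 3′UTRs of 50 to 500 bases, 11.9% of the mRNAs and 21.0% of all genes held it. The shares were 64.3% and 56.7% within 500 to 2000 bases, and 84.2% and 87.6% within 2000 to 10000 bases. The AU-rich pentamer AUUUA was in 57.3% against 69.8%, and the Pumilio element UGUAAAUA in 5.33% against 12.0%.

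Lower mRNAs were found with and without the element. Of the 30 mRNAs with UUUUAU, 21 were lower (median log2 fold change -0.51), and of the 45 without it 32 were lower (median -0.62), with TMM scaling. Over all tested protein-coding genes, 2205 of 8502 with UUUUAU were lower (median 0.10) and 2020 of 6623 without it (median -0.08). Of the 7 downregulated at least 2-fold, 1, Mrps5, held it. The median 3′UTR of these 7 was 261 bases, and 11.9% of the listed mRNAs with 50 to 500 bases held the element. Windows around the match are shown for Mrps5, for Mrps26, which rose, for Mrpl9, which did not pass the test, and for Mrps18b, whose element ends 28 bases before the end of the annotated transcript. They were read from GENCODE vM21 transcripts, 5′ to 3′ with T for U, and capitals mark the element.
Mrps5, chr2:127603909-127603938 (+): gccactctcactTTTTATtttaaaaaaagt
Mrps26, chr2:130565357-130565386 (+): aatgtttcctgcTTTTATaaataaagtatt
Mrpl9, chr3:94450296-94450325 (+): tgggggtaaagcTTTTATcatcaattggtt
Mrps18b, chr17:35910395-35910424 (-): tcctggctcagcTTTTATacaataaagctg

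Mitoribosomal proteins with other names were mostly lower as well, with TMM scaling as in all lists that follow. Of 5 tested, 4 were lower and none was higher by the quasi-likelihood test, with a median log2 fold change of -0.81. The shares of all tested genes were 24.1% lower, 31.2% higher and 6.56% downregulated at least 2-fold. Gadd45gip1, of the large subunit, had 90.1, 163, 164 and 155 CPM in control and 73.7, 72.3, 81.8 and 47.0 CPM in KO replicates 1 to 4. The groups did not overlap, and it was downregulated by 1.06 on the log2 scale (log2 fold change -1.06, SE 0.21, adjusted p = 0.00103, quasi-likelihood test in edgeR). Dap3, a GTP-binding protein of the small subunit, went from 203 ± 11.6 to 110 ± 6.23 CPM (log2 fold change -0.88), and Ptcd3 did not pass (-0.14, adjusted p = 0.407).

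The factors that work with the mitoribosome were mixed. Over all tested genes, 24.1% were lower and 31.2% were higher, and 6.56% were downregulated and 23.8% upregulated at least 2-fold. Translation factors fell in 10 of 14 and rose in none by this test, with a median of -0.61. Among them Mtrf1l, a release factor, and Taco1, a translational activator of mt-Co1, were downregulated, by log2 fold changes of -1.04 and -1.01. Of 25 assembly and rRNA modification factors, 10 were lower (40.0%) and 6 were higher (24.0%), with a median of -0.08. Fastkd2 was downregulated (-1.12), whereas the rRNA methyltransferases Mrm1 (3.11), Mrm2, listed as Ftsj2 (2.73), and Mrm3, listed as Rnmtl1 (1.52), were upregulated from levels below 1 CPM in every control library. Mterf3, which takes part in assembly of the large subunit, rose from 13.1 ± 2.73 to 54.7 ± 3.93 CPM (SD, n = 4 each; log2 fold change 2.06, SE 0.16, adjusted p = 1.09e-06, quasi-likelihood test in edgeR). Of the 17 mitochondrial aminoacyl-tRNA synthetases, which charge the tRNAs, 6 were lower and 6 were higher (35.3% each), with a median of -0.08. The share of higher synthetases was close to that of all tested genes. Aars2 (-1.35), Sars2 (-1.24) and Cars2 (-1.01) were downregulated, and Nars2 (2.44), Hars2 (2.11), Iars2 (1.39), Mars2 (1.36) and Ears2 (1.06) were upregulated.

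For the genes that maintain and transcribe mitochondrial DNA, 3 of 12 were lower and 4 were higher, shares close to the 24.1% and 31.2% of all tested genes. The mitochondrial RNA polymerase Polrmt had 10.6, 42.0, 34.6 and 33.8 CPM in control and 11.3, 12.1, 18.1 and 5.62 CPM in KO replicates 1 to 4. Control replicate 1 lay within the KO range, and the log2 fold change was -1.36 (SE 0.40, adjusted p = 0.0117, quasi-likelihood test in edgeR; exact permutation test, two-sided p = 0.114). Mterf1b was downregulated (-1.12), and Polg2, an accessory subunit of the DNA polymerase, and Mterf2 were upregulated (1.51 and 2.43). The mRNAs that the mitoribosome translates were called in few cases. Of 13, 12 were tested, and mt-Co1 was lower (-0.78) while mt-Nd2 (0.48) and mt-Nd3 (0.73) were higher, with a median of -0.16.

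Of the 15 tested genes of mitochondrial protein import, 6 were lower (40.0%) and 5 were higher (33.3%), with a median of -0.35. Over all tested genes, 24.1% were lower and 31.2% were higher, and 6.56% were downregulated and 23.8% upregulated at least 2-fold. Timm50, of the inner membrane translocase, was downregulated (-1.57), and the outer membrane receptors Tomm20 (1.39) and Tomm70a (1.55) and the small subunit Tomm5 (1.53) were upregulated. Respiratory chain subunits of the nuclear genome, which assemble with the products of the mitoribosome, were lower in 38 of 59 and higher in 2, with a median of -0.55. Ndufv1, of complex I, was downregulated (-1.03), and Uqcrc1, of complex III, was upregulated (2.46). Cytosolic ribosomal proteins were lower in 36 of 78 tested and higher in 2, with a median of -0.49. Fau (-1.06) and Rpl19 (-1.03) were downregulated, and Rps23 (1.45) and Rpl9 (1.90) were upregulated. Cytosolic ribosomal proteins have many near-identical pseudogenes, and their counts are uncertain. None of these lists was tested against another.

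**Figure D5:**
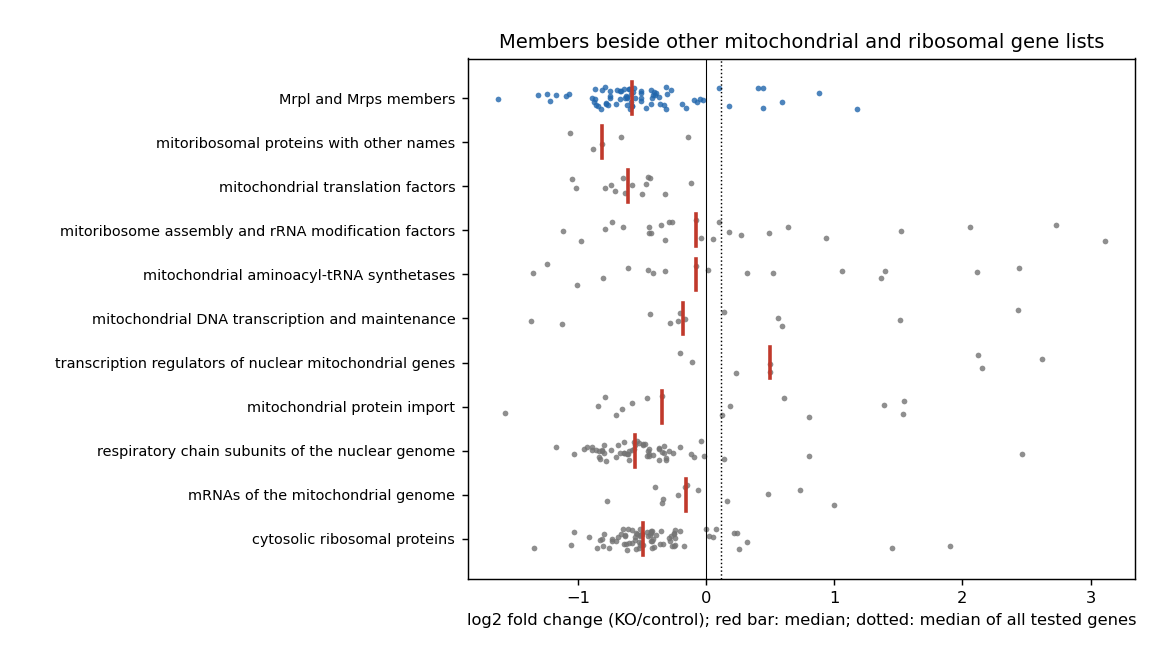
Log2 fold change (KO over control) of each tested gene (points) in the mitochondrial ribosomal proteins (blue) and 10 other gene lists (gray), with the median of each list (red bar) and of all tested genes (dotted line, 0.12). Vertical scatter within a list has no meaning. With TMM scaling the medians lie lowest for mitoribosomal proteins of other names (-0.81), translation factors (-0.61), the Mrpl and Mrps mRNAs (-0.58) and the respiratory chain (-0.55).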

How the data were processed

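RNA was measured in 8 libraries, each of 100 oocytes, 4 per group. Labels gave the group and replicate number of each library. The authors deposited raw read counts per gene, mapped to GRCm38, without normalization. The submitters' processing notes name STAR 2.6.1d and edgeR 3.11, and the paper names the nf-core/rnaseq pipeline. The counting tool, annotation and strand setting are not given in the sources used here. The kit is named as a stranded mRNA kit in the paper and as a stranded total RNA kit in the labels. Both sources state that rRNA was removed.

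Counts were tested in R 4.3.3 with edgeR 4.0.16 (quasi-likelihood test, TMM, at least 0.2 CPM in 2 libraries, 19241 genes), with DESeq2 1.42.0 as an alternative. CPM values are counts over TMM-scaled library sizes. The fit was tested on simulated data. Nothing says that libraries came from separate animals, so p-values measure the spread between libraries, which may be technical. Equal replicate numbers in the 2 groups were not taken as pairs.

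The genes and lists were chosen with earlier results of these data known. Genes were named if downregulated or upregulated at least 2-fold, if among the 10 lowest or 10 highest log2 fold changes or the 5 highest or lowest levels per length, or for their role. In the other lists, those called at least 2-fold were named. If a list held none, the 2 with the lowest adjusted p in each direction were named. Transcript length, GC content, overlaps and 3′UTRs came from GENCODE vM21, in which 77 of the 78 identifiers were found, and promoters from RefSeq. Each gene was represented by its longest transcript of any type and by the longest 3′UTR of its protein-coding transcripts. Assignment to subunits was made by hand. As alternatives, the exact test in edgeR and DESeq2 were run, libraries were scaled by size only, RLE, upper quartile or TMM restricted to genes with 10 CPM or more, filters were changed, the replicate number was used as a block, another list was taken and each library was left out. Python 3.11.15, pandas 2.3.3 and matplotlib 3.10.9 were used.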

Additional observations from a re-analysis of the deposited data

Results flagged for a closer look

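In 5 of the 56 groups of 4 libraries examined for the 28 named genes, 1 value was separated from the remaining 3 by more than Dixon's critical gap, which chance meets in about 1 in 20 groups (2.8 of 56). The library was control replicate 1 in all 5. It had 14.7 CPM for Mrps9 (25.8 to 27.8 in the other control libraries), 124 CPM for Mrpl18 (171 to 179), 4.22 CPM for Mrpl20 (7.84 to 8.57) and 2.49 CPM for Mrpl43 (4.66 to 4.83). For Mrpl50 it was the highest control library, with 10.7 CPM (7.25 to 7.55). The calls of Mrps9 and Mrpl18 were the same without this library, and Mrpl20, Mrpl43 and Mrpl50 passed the test neither with nor without it.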

How the results depend on the processing

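Of 503 values of named genes under the alternatives, 436 kept their direction and side of the threshold, 38 lost and 17 gained a call, and 12 changed sign. With library size only, 22 mRNAs were lower and 6 higher, 2 downregulated and 2 upregulated at least 2-fold, with a median log2 fold change of -0.31. The shares of all tested genes were 13.6%, 40.2%, 3.06% and 29.3%. With TMM on genes of at least 10 CPM the values were 25, 5, 2, 2 and -0.35, beside 14.9%, 39.4%, 3.26% and 28.6% of all tested genes. Upper quartile scaling gave 40 lower, 4 higher, 6 downregulated and 1 upregulated, with a median of -0.49. The exact test in edgeR gave 54, 4, 7, 1 and -0.58. When at least 1 CPM in 4 libraries was needed, 45 were lower, 3 higher, 7 downregulated and 0 upregulated, with a median of -0.52. Leaving out each library in turn gave 39 to 59 lower, 2 to 3 higher, 4 to 11 downregulated and 0 to 1 upregulated, and a median of -0.64 to -0.47. Mrpl9 changed sign with library size only (0.23), upper quartile (0.0513), TMM on genes of at least 10 CPM (0.20), at least 1 CPM in 4 libraries (0.0226) and without both deep libraries (0.0211), and ranged from -0.0755 to 0.0314 with each library left out. Mrps10 changed sign with the same scalings (0.26, 0.0748 and 0.22) and that filter (0.0469), and ranged from -0.107 to 0.0904. With the replicate number as a block, 46 were lower, 2 higher and 7 downregulated at least 2-fold. The numbers did not pair the libraries, with correlations of deviations of -0.07, -0.04, 0.11 and -0.12 for replicates 1 to 4. Other causes of these changes were not tested. Among tested mRNAs, counts were lowest for Mrps34, which had 1 to 25 counts per library.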
